A study of Mus musculus with 3 samples.

Results

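The Apoe and Apoc gene cluster of the mouse was examined for binding of HNF4A and FOXA2, which had been mapped by chromatin immunoprecipitation with sequencing (ChIP-seq). Every peak that overlapped an 80 kb window of chromosome 7, from 20240000 to 20320000 in build mm9, was taken. The window holds Apoc2, Apoc4, Apoc1 and Apoe. It contained 12 of 11703 HNF4A peaks and 2 of 9338 FOXA2 peaks, 14 of 21041 in all, and 0 of 1263 input regions. The members were chosen by position, but the locus itself was selected on the number and scores of its peaks in these same lists, so both are given as a description without a test.

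The cells were hepatoblasts, from which hepatocytes and the cells of the bile ducts arise. They came from pooled livers of wild-type C57BL/6 embryos at embryonic day 14.5 and were enriched by magnetic sorting for the surface protein DLK1. The HNF4A group, the FOXA2 group and the input group, which had no antibody, held 1 library each. Their labels differed only in the immunoprecipitation. Without replicates, no value below has an error between samples. The purity of the sort could not be checked against marker genes, since no expression was measured here.

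Apolipoproteins E and C are small proteins on the surface of circulating lipoproteins. Apoe encodes the ligand by which remnant particles are taken up through receptors of the LDL receptor family, Apoc2 encodes the cofactor of lipoprotein lipase, Apoc1 encodes an inhibitor of remnant uptake, and Apoc4 encodes a minor component of very low density lipoprotein. The liver is the main source of these proteins in plasma. In human, the corresponding genes share distal hepatic control regions that lie downstream of APOE and direct their expression in liver. HNF4A is a nuclear receptor that binds direct repeats of an AGGTCA-like half-site and is needed for hepatic lipoprotein genes. The forkhead protein FOXA2 binds DNA on nucleosomes and recognises TGTTTAC-like sequences.

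In RefSeq (GRCm38.p6) the protein-coding genes follow each other in the order Clptm1, Apoc2, Apoc4, Apoc1, Apoe, Tomm40 and Nectin2. A read-through gene joining Apoc4 and Apoc2, Gm44805, overlaps both. Apoc2, Apoc4 and Apoe are on the minus strand. No mm9 gene annotation was used here. In mm9 only approximate positions were at hand, with Apoe at about 20281500 to 20284500 and the left edge of Apoc2 at about 20257000. The start of Apoe therefore lies at the higher coordinate, and Apoc1, Apoc4 and Apoc2 lie downstream of it, toward lower coordinates. Peaks were placed relative to these marks and were not assigned to exons or introns.

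Promoters are shown for the genes of the cluster, because an HNF4A peak lay over the approximate start of Apoe and because both factors have known recognition sequences that can be looked for. Each sequence, from RefSeq build GRCm38.p6, runs from 250 bases before to 50 bases after an annotated start, 5′ to 3′ on the gene's strand, and capitals mark the motif matches described below. The table held sequences for 3 of the 4 genes; Apoc1 is named only. The Apoe sequence is that of its outermost start (chr7:19699139-19699438, minus strand), that of Apoc2 is chr7:19677892-19678191, minus strand, and that of Apoc4 is chr7:19681411-19681710, minus strand. These coordinates are not on the mm9 scale of the peaks.
Apoe: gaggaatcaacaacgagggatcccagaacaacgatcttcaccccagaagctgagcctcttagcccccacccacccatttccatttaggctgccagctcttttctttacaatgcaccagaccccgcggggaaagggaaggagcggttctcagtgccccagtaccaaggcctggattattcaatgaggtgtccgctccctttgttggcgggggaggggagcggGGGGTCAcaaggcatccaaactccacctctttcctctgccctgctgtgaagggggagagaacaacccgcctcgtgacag
Apoc2: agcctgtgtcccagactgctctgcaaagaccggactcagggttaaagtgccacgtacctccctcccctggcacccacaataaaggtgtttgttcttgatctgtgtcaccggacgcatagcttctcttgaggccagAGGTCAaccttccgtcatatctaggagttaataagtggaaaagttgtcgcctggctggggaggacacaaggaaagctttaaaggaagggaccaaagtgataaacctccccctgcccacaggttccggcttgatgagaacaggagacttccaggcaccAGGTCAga
Apoc4: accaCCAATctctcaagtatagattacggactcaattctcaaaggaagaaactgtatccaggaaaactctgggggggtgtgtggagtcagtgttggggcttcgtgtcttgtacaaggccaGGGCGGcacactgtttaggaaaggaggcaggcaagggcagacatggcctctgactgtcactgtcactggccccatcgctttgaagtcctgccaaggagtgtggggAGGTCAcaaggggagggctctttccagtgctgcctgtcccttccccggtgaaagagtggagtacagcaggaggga

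Of 11 motifs searched, 6 were matched in at least 1 of the 5 annotated promoters of these genes. The shares below are for single promoters, and a match in any of 5 is more frequent than that. The Apoe sequences at chr7:19698349-19698648 and chr7:19698572-19698871 also overlap each other. The outermost Apoe promoter held GGGGTCA, a nuclear receptor half-site, at 29 to 23 bases before the start. This motif was present in 4.04% of 32851 promoters of the same length. The half-site AGGTCA was found in Apoc2 at 115 to 110 bases before the start and again at 43 to 48 bases after it, and in Apoc4 at 25 to 20 bases before the start, against 16.3% of all promoters with at least 1 match. All of these matches were on the gene's own strand.

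Apoc4 also held CCAAT, a motif of NF-Y found in 37.4% of all promoters, and GGGCGG, a motif of SP1 found in 35.7%. The FOXA motif TGTTTAC was not in these 3 sequences but occurred on the opposite strand across another of the 3 annotated Apoe starts, against 3.65% of all promoters. TATAAA was matched on both strands, with the matches overlapping, before the remaining Apoe start and in no other promoter of these genes, against 13.6% of all promoters. The other motifs searched on both strands were CAAAGTCCA and CAAAGGTCA for HNF4A, TATTTAC and TGTTTGC for FOXA and, for LXR, AGGTCA repeated after a spacer of 4 bases. None was found in the 5 promoters of the 3 genes, and each was present in 0.0152% to 5.07% of all promoters. A match to GGGGTCA or AGGTCA is short, and neither a match nor its lack says whether a factor was bound. The bound regions were defined in mm9, and their own sequences are not shown here.

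HNF4A was bound at the cluster in a row of sites, and the score of 1 of them was among the highest of the whole list. The strongest HNF4A peak lay at 20270693 to 20271061 with a score of 142. The score is a whole number deposited by the authors for each peak, without a stated definition, and is compared here only within its list. This peak ranked 3 of 11700 nuclear HNF4A peaks and 1 of 642 on chromosome 7. It lay 10.4 kb below the approximate downstream end of Apoe, between that gene and the left edge of Apoc2.

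The next highest HNF4A peak was at 20286243 to 20286623 with a score of 72. It began 1.74 kb beyond the approximate start of Apoe, on its upstream side, toward Tomm40, which encodes a subunit of the mitochondrial import pore. With 10 tied peaks, it held ranks 266 to 276 of 11700. These 2 peaks together made up 45.1% of the summed HNF4A score of the window. The strongest alone made up 30.0%.

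Another HNF4A peak, at 20284386 to 20284698, covered the approximate mm9 position of the start of Apoe. Which of the 3 annotated starts that position stands for was not determined. Its score was only 25, and it stood in the middle of the list, in the top 43.4% when tied scores share the middle rank. The peak at the Apoe start was thus lower than that of the neighbouring upstream site, 1.54 kb away. No HNF4A peak lay wholly inside Apoe.

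Downstream of Apoe, between it and the approximate left edge of Apoc2, lay 9 of the 12 HNF4A peaks, the strongest one included. Whether any of them covered the start of an Apoc gene was not determined, since no mm9 positions of those starts were at hand. Nearest to Apoe were 3 low peaks, at 20279577 to 20280163 (score 17), 20278646 to 20279305 (score 22) and 20277303 to 20277607 (score 16). All scored below the list median of 23. The peak at 20271976 to 20272183, with a score of 47, lay 0.914 kb above the strongest one.

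Farther down, 4 peaks followed in 2 close groups, each with a higher and a lower member. They were at 20266730 to 20266945 (score 16) and 20266031 to 20266378 (score 35), with 0.351 kb between them, and at 20263130 to 20263628 (score 22) and 20261979 to 20262326 (score 43), with 0.803 kb between them. The remaining peak, at 20301214 to 20301735 with a score of 17, stood apart on the upstream side of Apoe, 14.6 kb beyond its neighbour.

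**Figure D1:**
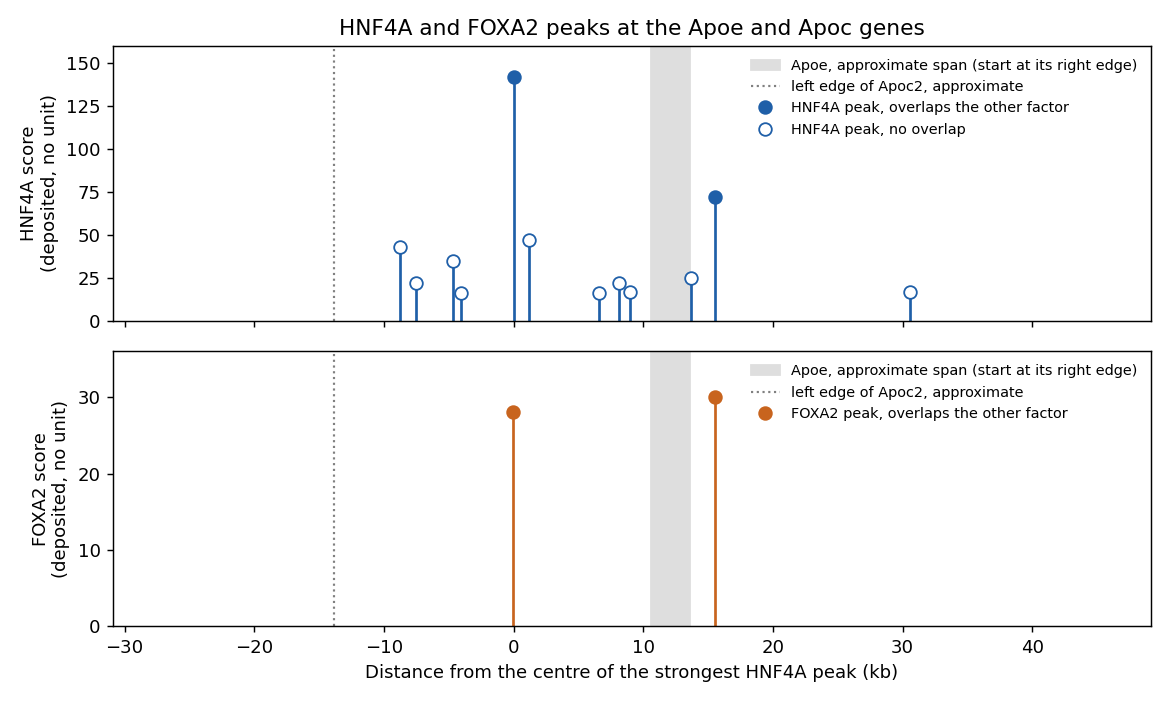
Deposited peak scores (no unit) of HNF4A, above, and FOXA2, below, against the distance in kb from the centre of the strongest HNF4A peak; filled circles are peaks that overlap the other factor, the grey band is the approximate span of Apoe and the dotted line the approximate left edge of Apoc2. The FOXA2 peaks, with scores of 28 and 30, stand at the 2 highest HNF4A peaks, with scores of 142 and 72, and at none of the other 10.

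FOXA2 was found at only 2 places in the window, and both coincided with the 2 highest HNF4A peaks. At the strongest HNF4A peak lay a FOXA2 peak at 20270683 to 20271041 with a score of 28. The peaks shared 349 bp, or 94.6% of the HNF4A peak and 97.2% of the FOXA2 peak, and their centres were 15 bp apart. Upstream of Apoe, a FOXA2 peak at 20286205 to 20286633 with a score of 30 contained the HNF4A peak of score 72 entirely, with 381 bp in common and centres 14 bp apart. Over all 2879 overlapping pairs of both factors, the median distance between centres was 59 bp (interquartile range 26.5 to 106 bp).

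The FOXA2 peaks were less high in their own list than their HNF4A partners in theirs. The score of 28 held ranks 1356 to 1460 and the score of 30 ranks 1181 to 1266 of 9338 FOXA2 peaks. In percentiles, with tied scores at their middle rank, these were the top 15.1% and 13.1%, against the top 0.0256% and 2.32% for their HNF4A partners, though the lists end at different lowest scores. Neither FOXA2 peak was among the 10% highest of its list, a class that held 10.2% of FOXA2 peaks with ties. Ordered over all 2879 pairs by the poorer of the 2 percentiles, so that a pair came first only where both scores were high, the pair upstream of Apoe came 195th and the pair of the strongest peak 250th.

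Between these shared sites, 15556 bp apart, lay 5 HNF4A peaks and no FOXA2 peak. A further 4 HNF4A peaks lay below them and 1 above. The 10 unshared HNF4A peaks had scores of 16 to 47, and the nearest FOXA2 centre was 1.22 to 15.1 kb away (median 6.57 kb). The unshared peak over the start of Apoe was 1.88 kb from the FOXA2 peak upstream of it. The share of 2 of 12 HNF4A peaks overlapped by FOXA2 stood beside 24.4% of all nuclear HNF4A peaks (95% Wilson interval 23.7 to 25.2%). The 2 of 2 FOXA2 peaks overlapped by HNF4A stood beside 30.7% of all FOXA2 peaks (29.8 to 31.7%). Peaks this few allow no statement that the locus departs from either list.

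The list was divided into 4 classes at the quartiles of its own HNF4A scores, a step added after the values of the locus were seen. In the highest class, with scores of 33 or more, 2 of 5 HNF4A peaks of the locus overlapped FOXA2, against 35.6% of 2990 peaks in the list (33.9 to 37.3%). In the next class, with scores of 23 to 32, 0 of 1 did, against 25.6% (24.1 to 27.1%). With scores of 18 to 22 it was 0 of 2, against 19.1% (17.8 to 20.5%), and with scores of 16 or 17 it was 0 of 4, against 15.7% (14.2 to 17.2%). Numbers this small allow no statement that the locus departed from the list in any class. The FOXA2 partners in the highest class scored 28 and 30 at the locus, against a median of 22 in the list (quartiles 15 and 33). Intervals cover counting error only.

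**Figure D2:**
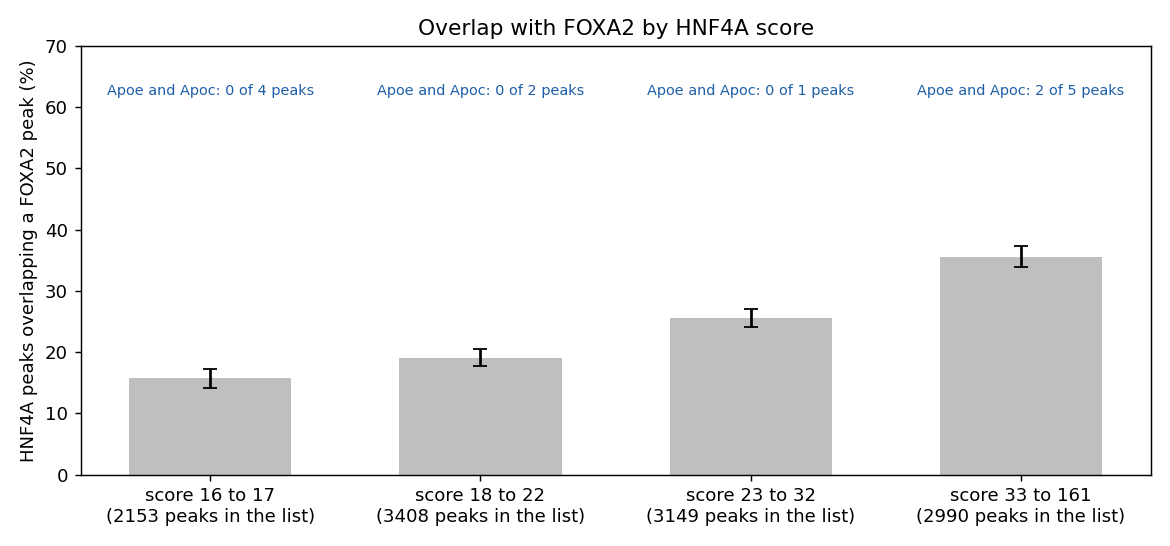
Share of all nuclear HNF4A peaks that overlap a FOXA2 peak, in %, in 4 classes cut at the quartiles of HNF4A scores, with 95% Wilson intervals as bars; the text above each bar gives the peaks of the Apoe and Apoc window in that class. At the locus 0 of 4, 0 of 2, 0 of 1 and 2 of 5 peaks were shared from low to high scores, against 15.7%, 19.1%, 25.6% and 35.6% of the list.

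With the highest peaks included, the median HNF4A score of the cluster was close to that of the list, while the upper quartile was higher. The 12 peak scores had a median of 23.5 (quartiles 17 and 44), against a list median of 23 (quartiles 18 and 33). In the highest score class were 5 of 12 peaks, against 2990 of 11700 in the list. In the lowest class were 4 of 12, against 2153 of 11700. At or above the list median were 6 of 12 peaks, against 52.5% of the list, and 2 of 12 stood at the lowest listed score of 16. With tied scores at their best rank, the 10% highest scores included 3 of 12 peaks of the locus and 10.6% of the list. The lowest of these 3, with a score of 47, stood at the top 10.3% by its middle rank. The peaks were 208 to 660 bp wide with a median of 358.5 bp, against 430 bp for the list, and 4 of 12 were wider than that.

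**Figure D3:**
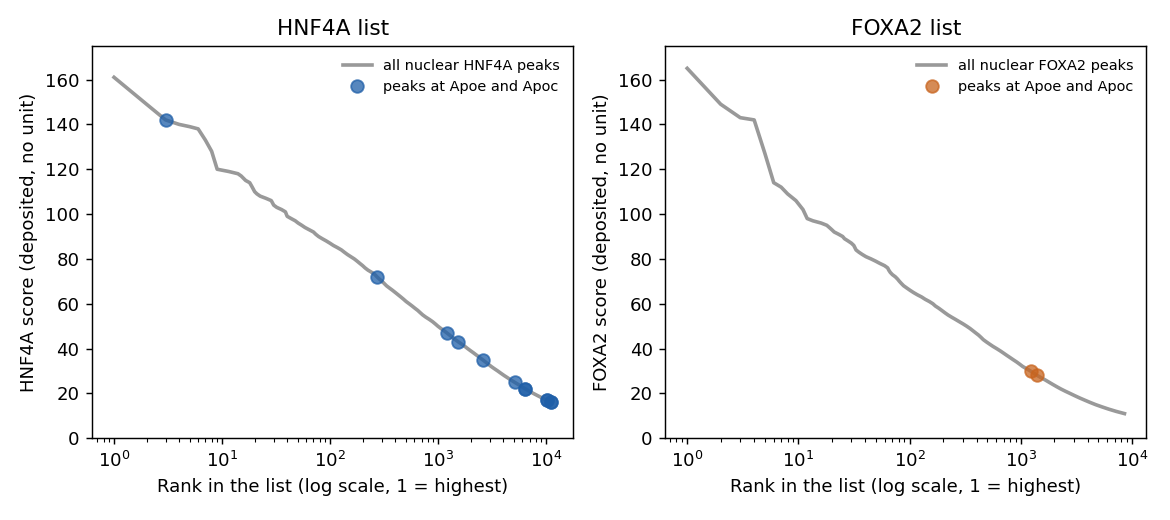
Deposited score (no unit) against rank on a log scale for all nuclear peaks, as a grey line, and for the peaks at Apoe and Apoc, as points, in the HNF4A list (left) and the FOXA2 list (right). The HNF4A points run over nearly the whole list, at scores of 142 to 16, while the FOXA2 points sit together at 30 and 28.

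The HNF4A peaks of the cluster were closely packed, as a description of a locus chosen partly for this. Adjacent HNF4A centres in the window were a median of 1891 bp apart (633 to 15041.5 bp over 11 gaps), against a median of 46757.5 bp between neighbours in the list. When the genome was cut into consecutive windows of 80 kb, 6705 held an HNF4A peak, and 58.4% of these held a single one. The Apoe and Apoc window, with 12, shared the first place with 1 other window, on chromosome 5. Windows shifted by 40 kb and windows of 40 kb both divide the row of peaks, with 9 in the fullest piece. The place of the locus was 5 in the former, held by 3 windows, and 2 in the latter. By peaks at or above the list median alone it was 3, held by 9 windows. The unshifted placing of 80 kb windows keeps the row of peaks at the locus whole. It cuts the chromosome 5 cluster described below, with 14 HNF4A peaks from 90843248 to 90923884, at 90880000. The summed HNF4A score of the Apoe and Apoc window was 474, which ranked 1 with the unshifted placing. With the shifted placing its sum was 360 and ranked 4, below a highest sum of 520.

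FOXA2 did not show such packing at the locus. Of the 6264 windows with a FOXA2 peak, 1926 (30.7%) held 2 or more. The other 4 windows with at least 10 HNF4A peaks held 9 FOXA2 peaks on chromosome 5, with 12 HNF4A peaks, 0 on chromosome 18, with 11, and 3 on chromosome 13 and 5 on chromosome 9, with 10 each. Their highest HNF4A scores were 75, 45, 40 and 72, all below the 142 at the Apoe and Apoc genes. Of these 4 windows, 1 had as few FOXA2 peaks as the Apoe and Apoc window or fewer.

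**Figure D4:**
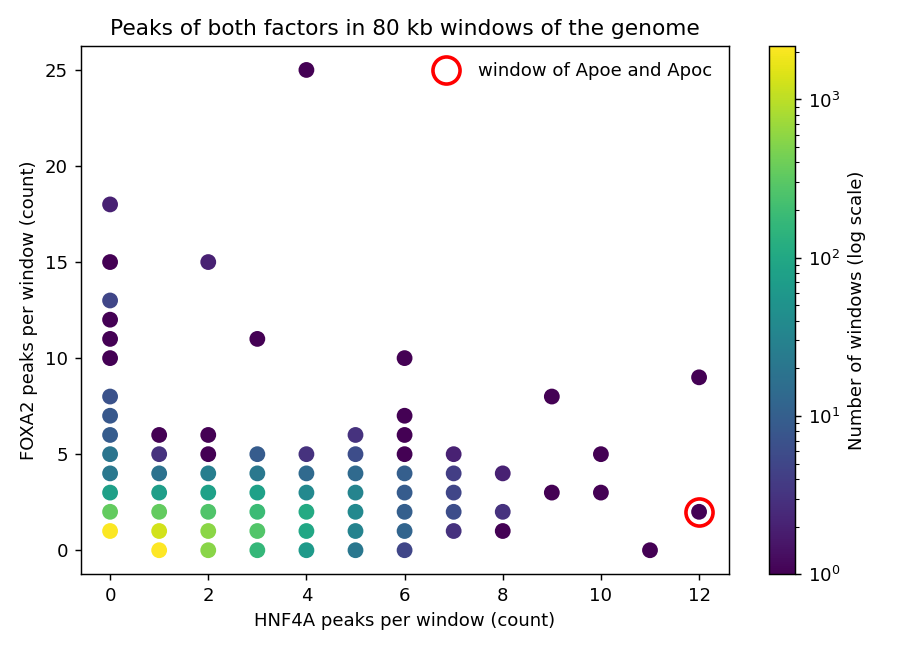
Number of FOXA2 peaks against number of HNF4A peaks in consecutive 80 kb windows of the genome that hold a peak of either factor; the colour gives the number of windows at each point on a log scale and the red ring marks the Apoe and Apoc window. It lies at the right edge with 12 HNF4A and 2 FOXA2 peaks, below the other window with 12 HNF4A peaks, which holds 9 FOXA2 peaks.

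Neighbouring peaks of both factors were also joined over gaps up to a fixed limit, which bridged gaps of up to 5.12 kb at the locus and left the gap of 14.6 kb open. This gave a cluster of 11 HNF4A and 2 FOXA2 peaks over 24.7 kb, from the peak of score 43 below to the shared site upstream of Apoe. These are 4.46 HNF4A peaks and 0.811 FOXA2 peaks per 10 kb. The 3 other clusters with the most peaks of both factors together, leaving out those within 10 kb of an input region, were longer and less dense in HNF4A. A choice by the number of peaks favours long clusters and those rich in FOXA2, and shorter clusters were not compared. The contrasts below therefore follow in part from the choice of clusters. On chromosome 5, 14 HNF4A and 12 FOXA2 peaks spread over 80.6 kb, or 1.74 HNF4A and 1.49 FOXA2 peaks per 10 kb. On chromosome 18 there were 1.63 HNF4A and 0.545 FOXA2 peaks per 10 kb, and on chromosome 11 there were 1.02 HNF4A and 1.19 FOXA2 peaks. Shared HNF4A peaks numbered 2 of 11 in the Apoe and Apoc cluster, against 8 of 14, 2 of 12 and 4 of 6 on chromosomes 5, 18 and 11. Among all nuclear HNF4A peaks the share was 24.4%, and counts this small allow no statement that the clusters differ. The highest HNF4A scores of those clusters were 80, 74 and 39. The HNF4A scores of the Apoe and Apoc cluster summed to 457 over its shorter span, against 557, 480 and 177 on chromosomes 5, 18 and 11.

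The edges of the window did not cut through a group of peaks. The nearest HNF4A peaks outside it were 107 kb below and 50.5 kb above, each with the lowest listed score of 16. The nearest FOXA2 peaks outside were 103 kb below, with a score of 17, and 49.1 kb above, with a score of 14. Input regions were remote, with the nearest centre 399 to 439 kb from the HNF4A peaks of the window. Of the nuclear peaks, 0 of 11700 for HNF4A and 0 of 9338 for FOXA2 overlapped an input region, and both lists end at a lowest score, so a place without a listed peak is not shown to be unbound.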

How the data were processed

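ChIP-seq of HNF4A, of FOXA2 and of input chromatin was made from pooled DLK1-sorted hepatoblasts, 1 library each. For each library the authors deposited 1 list of called regions, with their coordinates and an integer score per region. Per the submitters' processing notes the build is mm9. The aligner, the caller, its cutoff and what the score measures were not given in the sources used here. Library depth is unknown.

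Positions were read as 1-based with both ends included. The 3 mitochondrial HNF4A regions were left out of ranks and shares. Peaks were shared when they overlapped by at least 1 bp, and tied scores took the middle rank unless a range is given. A peak was counted in the window that held its centre. All peaks of the window, their nearest neighbours outside it and the 3 largest clusters elsewhere are named by rule. The members and lists were chosen with earlier results of these data known. The planned count of peaks at other lipoprotein genes was not made, since it needed an mm9 annotation. Alternatives concerned the window, the score threshold, the definition of sharing, tied ranks and the joining distance. Overlap, rank and joining code was tested on simulated data. Python 3.11.15, numpy 2.4.6, scipy 1.17.1 and matplotlib 3.10.9 were used.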

Additional observations from a re-analysis of the deposited data

How the results depend on the processing

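The 8 results were recomputed under 19 alternatives, and 13 of these left the value within 1.5 times of that reported. Some of the 13 could not have moved, as stated below for tied scores and for the widened window. No other peak had the score of the strongest HNF4A peak, so the ranking of tied scores could not change its percentile, 0.0256%. The 2 shared HNF4A peaks stayed 2 with centres at most 100 bp apart, with a reciprocal overlap of 50%, with a gap of up to 500 bp allowed and with FOXA2 peaks at or above their list's median only. Widening the window by 20 kb on each side could add no peak of either factor, since the nearest ones outside lay 49.1 to 107 kb away. With HNF4A peaks at or above the list median only, 6 of 12 remained in the window, which then ranked 3 among windows by their number, level with 8 others. The first place by number of HNF4A peaks depended on where windows were cut. Windows shifted by 40 kb and windows of 40 kb both divide the row of peaks. The place was 5 in the former, held by 3 windows, and 2 in the latter. The unshifted placing of 80 kb windows kept that row whole and cut the chromosome 5 cluster of 14 HNF4A peaks. By summed HNF4A score, an alternative chosen after seeing the data, the place was 4 in the shifted windows and 1 in those of 40 kb. Joining at 5 kb left a cluster of 7 peaks over 10.2 kb around the strongest one, and joining at 25 kb gave 14. No paired analysis was possible because each group holds 1 library. With 1 library per group and unknown depth, neither the scores nor the lack of FOXA2 at 10 HNF4A peaks can be set against an error.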
